A study of Rattus norvegicus with 12 samples.

Results

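The genes described here build, line and fill the lysosome: 16 encode subunits or accessory proteins of its proton pump, and 23 encode its membrane proteins, soluble hydrolases, their helper proteins and the transcription factor TFEB. They were taken by symbol from a list of 39, all of which were found among the 30045 gene symbols of the count table. The lysosome is the acidic compartment in which cells break down what they engulf and what they recycle. Its pump, the vacuolar ATPase (V-ATPase), has a V1 sector on the cytosolic face that splits ATP and a V0 sector in the membrane that carries protons inward. The acid it makes activates the hydrolases and drives their delivery and the export of their products. In lung, lysosomes are prominent in alveolar macrophages, which clear inhaled particles, and the lamellar bodies in which alveolar type 2 cells store surfactant are related organelles.

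RNA was sequenced from a piece of lung of each of 12 male Fischer 344 rats, 3 months old when bought. The air group (6 rats) breathed air in whole-body chambers. The CNC group (6 rats) breathed crystalline nanocellulose, small crystals derived from plant cellulose, at 20 mg/m3 for 6 hours a day and 5 days a week, over 14 exposure days, and lungs were collected 1 day after the last exposure. No genetic change or further treatment is named for either group. Levels are given in CPM, counts divided by a library size that was adjusted by TMM, a scaling to the bulk of genes. Since they are not corrected for gene length, a level is compared between rats and not between genes. "Rose" and "fell" mean an adjusted p below 0.05 by edgeR's quasi-likelihood test over all 15019 genes tested, and each rat is one replicate.

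Library totals ran from 8693259 to 16603697 counts. Every member had at least 40 counts in every library, and the members other than Atp6v0d2 had at least 217, so all 39 passed the filter on low counts in both groups. Lung identity was clear in every library, with summed markers of alveolar type 2 cells between 23526 and 38254 CPM and of type 1 cells between 6907 and 9286 CPM. In a bulk piece of lung, a changed number of cells of a type and a changed amount of RNA per cell cannot be told apart.

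Of the 39 members 30 rose in the CNC rats, where 13.2% of all genes tested rose. None fell by edgeR, where 11.4% of all genes tested fell, and none was lower at an unadjusted p below 0.05, by the DESeq2 Wald test or by limma-voom. The rises were mostly small. The median log2 fold change was 0.21 over the members and -0.0026 over all genes tested, and 17 members rose by at least 1.2-fold. In 25 members all 6 CNC rats lay above all 6 air rats, a separation found in 6.82% of genes tested. Summed over the members, levels were 7046 ± 171 CPM in air against 8676 ± 430 CPM in CNC (SD, n = 6 per group), or 0.709 ± 0.0197% and 0.86 ± 0.0384% of all counts.

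Of the 16 pump genes 15 rose, with a median log2 fold change of 0.22. Of the 23 others 15 rose, with a median of 0.18. The V1 sector (8 of 8), the accessory subunits (2 of 2) and the soluble non-enzymes (3 of 3) rose throughout. The V0 sector had 5 of 6 higher, the membrane proteins 5 of 7, the glycosidases 5 of 7 and the lipid and peptide hydrolases 2 of 5, and Tfeb was not called. The difference between these classes is a description, without a test. With a covariate for circadian clock genes, given with the clock genes at the end, 5 of the 16 pump genes and 7 of the 23 others were called, with medians of 0.20 and 0.22, and 2 of the 8 V1 genes were.

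**Figure D1:**
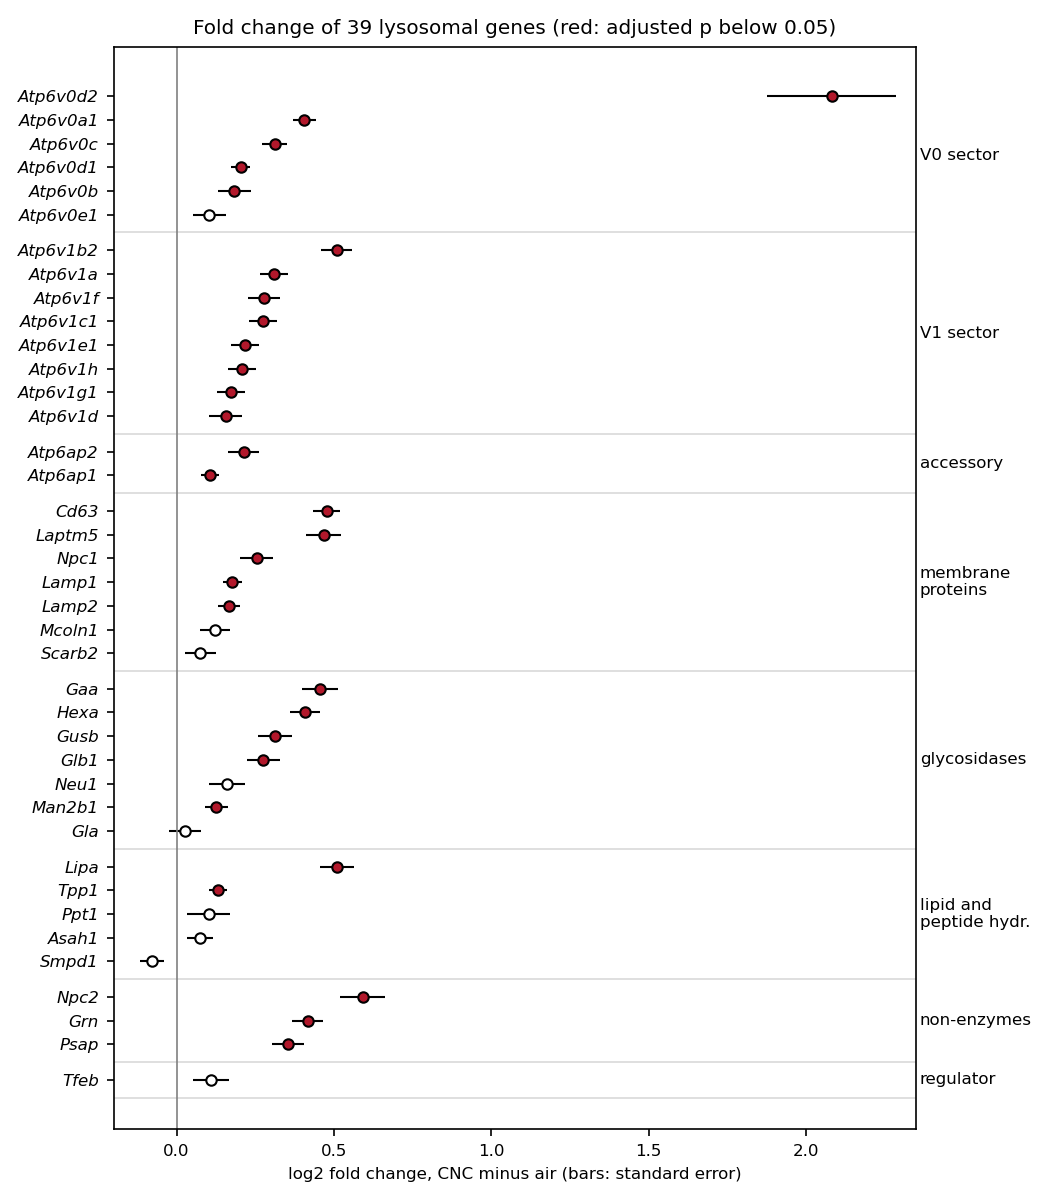
Log2 fold change of each of the 39 members, CNC minus air, with its standard error (horizontal axis), grouped by role; red points had an adjusted p below 0.05 and open points did not. Atp6v0d2 stands alone at 2.08, the other called members lie between 0.11 and 0.59, and Smpd1 is the single member on the negative side.

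The promoters of lysosomal genes are known for a palindromic E-box that transcription factors of the TFEB family bind. RefSeq promoter windows of the rat build GRCr8, 250 bases before to 50 bases after each gene's start, were matched by symbol for 31 members. Atp6v0d2, Atp6v1b2, Atp6v1c1, Atp6v1h, Hexa, Asah1, Ppt1 and Psap had no window. The core CACGTG, which reads the same on both strands, occurred in the windows of 7 of the 31 members (22.6%) and in 6.42% of all 33469 windows. Its longer form TCACGTGA, which contains the core, occurred in 4 (12.9%) against 0.777% of all windows. The 10-base form with a further G before it and C after it occurred in 0 of the 31 and in 0.233% of all windows. In 116 windows of other lysosome genes the core occurred in 22 (19%), the longer form in 9 (7.76%) and the 10-base form in 4 (3.45%). The set of all windows was not limited to the 15019 genes tested and was not matched to the members in base composition.

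The stretches around these sites are shown because they let the letters be read beside each gene's change. They run 5′ to 3′ on the gene's own strand, with CACGTG or TCACGTGA in capitals, and a position is that of the first base of CACGTG counted from the start. The coordinates are those of GRCr8, which is not the build of the counts.
Lamp1 (chr16:83075066-83075276, minus strand; sites at -183, -167, -150, -65 and -38): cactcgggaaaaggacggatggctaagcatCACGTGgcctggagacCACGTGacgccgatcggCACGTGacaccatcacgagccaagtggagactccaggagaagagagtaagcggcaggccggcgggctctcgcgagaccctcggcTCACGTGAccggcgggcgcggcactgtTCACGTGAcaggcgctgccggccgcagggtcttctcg
Atp6v0d1 (chr19:50357265-50357330, minus strand; site at -52): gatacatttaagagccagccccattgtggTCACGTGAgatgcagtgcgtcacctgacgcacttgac
Gaa (chr10:105028258-105028323, plus strand; site at -67): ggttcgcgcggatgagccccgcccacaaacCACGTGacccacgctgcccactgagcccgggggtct
Glb1 (chr8:122963588-122963653, plus strand; site at -100): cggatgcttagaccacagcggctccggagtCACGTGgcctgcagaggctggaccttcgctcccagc
Cd63 (chr7:1921924-1921989, plus strand; site at -190): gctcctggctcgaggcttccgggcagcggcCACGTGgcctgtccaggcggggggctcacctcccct
Mcoln1, before the start (chr12:6358206-6358257, plus strand; site at -22): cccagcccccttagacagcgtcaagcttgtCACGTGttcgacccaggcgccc
Mcoln1, after the start (chr12:6358258-6358277, plus strand; site at 5): cgcTCACGTGAccgcggcgc
Atp6v0e1, after the start (chr10:17007117-17007136, minus strand; site at 25): cggTCACGTGAgcctctgtt

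Lamp1 carried 5 copies of the core, 2 of them in the longer form. Of the 7 genes shown, Lamp1, Atp6v0d1, Gaa, Glb1 and Cd63 rose, and Mcoln1 and Atp6v0e1, which both hold the longer form just after the start, were not called. Over all 39 members 30 rose (76.9%), and a link between site and rise was not tested. The letters in a window describe the sequence and not binding.

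Among the V0 subunits, Atp6v0d2 changed most. It encodes the form of subunit d, the link between the V0 ring and the central stalk, that is known from osteoclasts, macrophages and kidney. In the air rats its level had a lowest value of 2.88, a median of 6.32 and a highest value of 9.62 CPM, and in the CNC rats these were 22.3, 26.9 and 33.4 CPM. The lowest CNC rat therefore lay well above the highest air rat. Atp6v0d2 rose 4.23-fold (log2 fold change 2.08 ± 0.20 SE, adjusted p = 4.01e-06 by edgeR), and it was the member with the largest relative spread in air, with a coefficient of variation of 40.1%. Its widely expressed counterpart Atp6v0d1 ran from 154 to 164 CPM in air and from 175 to 195 CPM in CNC, again without overlap. Atp6v0d1 rose 1.15-fold. Within each rat, there were between 1.84 and 5.92 counts of Atp6v0d2 per 100 counts of Atp6v0d1 in air and between 12.5 and 18.1 in CNC, a ratio that no scaling between libraries alters.

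Other V0 subunits rose by less. Atp6v0a1, a form of the large membrane subunit a that shapes the path of the protons, had a lowest, median and highest level of 141, 148 and 155 CPM in air and 183, 195 and 208 CPM in CNC. It rose 1.33-fold, with the groups apart. Atp6v0c, the main proteolipid of the proton-carrying ring, had 215, 230 and 249 CPM in air and 269, 285 and 305 CPM in CNC, and rose 1.24-fold. Atp6v0b, a further ring proteolipid, rose 1.14-fold with overlapping groups (43.2 to 53.7 CPM in air, 49.8 to 58.5 CPM in CNC, adjusted p = 0.0193 by edgeR). Atp6v0b no longer passed when air replicates 4 and 5 were both removed (adjusted p = 0.079), or CNC replicates 3 and 6 (adjusted p = 0.0861). Atp6v0e1, a small membrane subunit, was the pump gene that did not pass (log2 fold change 0.10 ± 0.05 SE, adjusted p = 0.17). Without air replicate 3, its highest air rat, Atp6v0e1 passed (adjusted p = 0.0226).

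In the V1 sector, the ATP-splitting head rose furthest. Atp6v1b2, the B subunit form that is widely expressed, had a lowest, median and highest level of 110, 111 and 120 CPM in air and 142, 159 and 182 CPM in CNC. The groups did not overlap, and Atp6v1b2 rose 1.42-fold (log2 fold change 0.51 ± 0.05 SE, adjusted p = 4.01e-06 by edgeR). Atp6v1a, the catalytic A subunit that pairs with it, ran from 140 to 151 CPM in air and from 168 to 201 CPM in CNC, and rose 1.24-fold. Counts of Atp6v1b2 per 100 counts of Atp6v1a were 77.2 ± 4.01 in air and 88.6 ± 4.63 in CNC (SD, n = 6 per group), with overlapping ranges.

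The rotor and stalk subunits rose by 1.11- to 1.21-fold. Atp6v1f, a rotor subunit, rose 1.21-fold, from a range of 37 to 42.3 CPM in air to 43.2 to 53.2 CPM in CNC. Atp6v1c1, which joins the sectors during assembly, also rose 1.21-fold, from 60.8 to 70.4 CPM in air to 73.8 to 83.1 CPM in CNC. The peripheral stalk subunits Atp6v1e1 and Atp6v1g1 rose 1.16- and 1.13-fold, and the regulatory subunit Atp6v1h 1.15-fold. Of these 5, the groups overlapped in Atp6v1e1 alone. The smallest rise of the sector was that of the rotor subunit Atp6v1d, 1.11-fold (adjusted p = 0.0404 by edgeR). The Atp6v1d call was lost without air replicate 1 or 2, or without CNC replicate 1, 2, 4 or 5 (adjusted p from 0.0738 to 0.0851). It was also lost with upper-quartile scaling (adjusted p = 0.0605) and with library size alone (adjusted p = 0.0713).

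The accessory proteins rose too. Atp6ap1, which helps assemble the V0 sector, had a lowest, median and highest level of 187, 188 and 195 CPM in air and 198, 203 and 212 CPM in CNC. This 1.08-fold rise was small, yet the groups did not overlap, since the coefficient of variation in air was the lowest of all members (1.42%). Atp6ap2, also known as the prorenin receptor, rose 1.16-fold, from 65.4 to 69.1 CPM in air to 71.1 to 87.4 CPM in CNC. Summed over the 16 pump genes, levels were between 1612 and 1736 CPM in air and between 1904 and 2078 CPM in CNC. Without Atp6v0d2 the sum still had no overlap, at 1609 to 1727 CPM in air and 1881 to 2044 CPM in CNC.

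**Figure D2:**
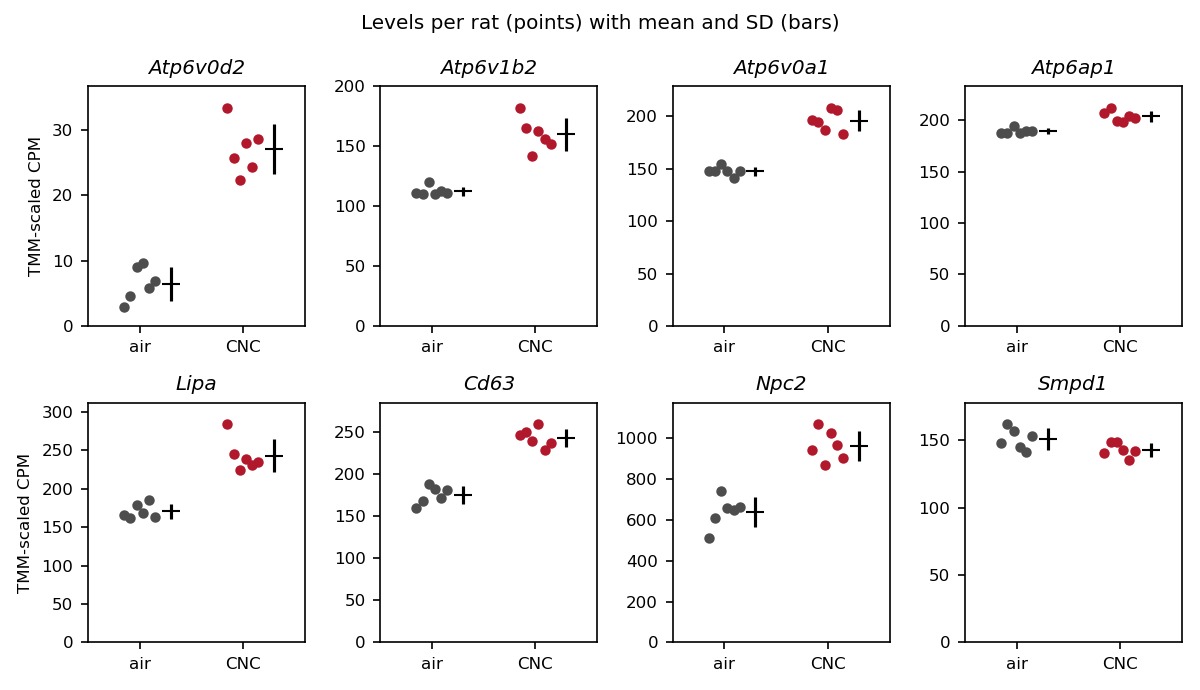
TMM-scaled CPM (vertical axis, from 0) of 8 members in each rat (points), with the group mean and SD beside them (bars, n = 6 per group), air in grey and CNC in red. The CNC points lie above all air points in every panel except that of Smpd1, where the groups overlap.

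Pump genes outside the member list gave other counts. Of 20 further subunit, isoform and assembly genes 16 were tested and 2 rose. That is 12.5%, near the 13.2% of all genes tested that rose, and their median log2 fold change was -0.01. None fell by edgeR, none was lower at an unadjusted p below 0.05, and none fell by the DESeq2 Wald test or limma-voom. The 2 that rose were Tmem9, a pump-associated membrane protein (1.23-fold), and Tcirg1, the a3 form of subunit a known from osteoclasts (1.09-fold, adjusted p = 0.0302 by edgeR). The Tcirg1 call was lost without air replicate 1, 2 or 6 or without CNC replicate 1, 3 or 4 (adjusted p from 0.0539 to 0.0751), and under library size alone, upper-quartile scaling or removal of both CNC replicates 3 and 6 (adjusted p from 0.0575 to 0.0898). With the clock covariate neither passed, at a log2 fold change of 0.01 for Tcirg1 (adjusted p = 0.953) and 0.22 for Tmem9 (adjusted p = 0.388). Of the other alternative forms of member subunits, those tested were Atp6v0a2, Atp6v0a4, Atp6v0e2 and Atp6v1c2, and none of these was called. Atp6v0a2 was at 31.6 ± 2.11 CPM in air and 29.7 ± 1.26 CPM in CNC, and Atp6v1c2 at 121 ± 10.1 and 115 ± 9.16 CPM (SD, n = 6 per group). Atp6v0e2 had a log2 fold change of -0.03 ± 0.05 SE. Within each rat, counts of Atp6v0a1 per 100 counts of Atp6v0a2 were between 426 and 514 in air and between 624 and 732 in CNC, without overlap. Counts of Atp6v0e1 per 100 of Atp6v0e2 overlapped (298 to 421 in air, 323 to 438 in CNC). Some forms known from acid-secreting kidney cells were scarce, with 150 and 140 counts of Atp6v0a4 over the 6 air and the 6 CNC libraries, 31 and 10 of Atp6v1b1 and 6 and 13 of Atp6v1g3, while Atp6v1c2 had 8952 and 8809.

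**Figure D3:**
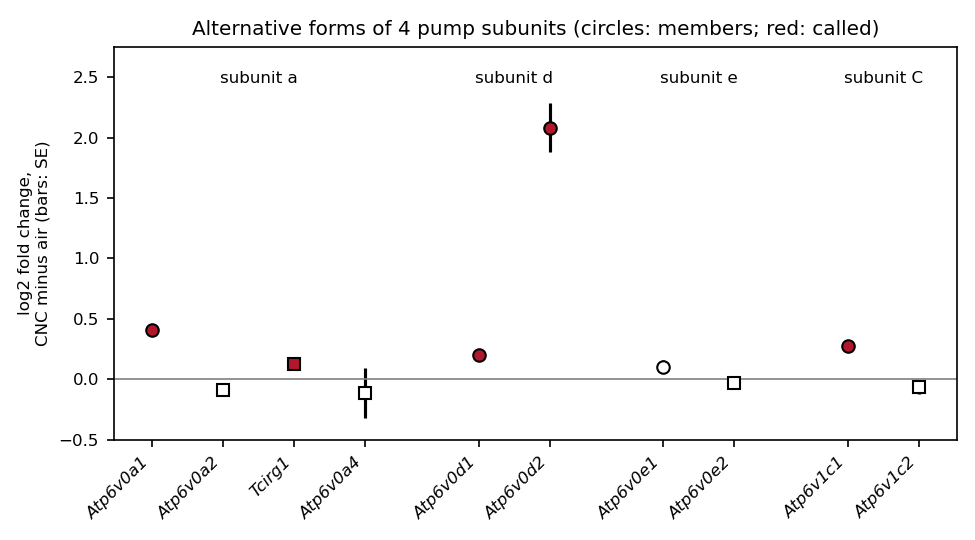
Log2 fold change, CNC minus air, with its standard error (vertical axis) for the alternative forms of pump subunits a, d, e and C. Circles are members and squares are not, red marks an adjusted p below 0.05; Atp6v0a1, Atp6v0d1, Atp6v0d2, Atp6v1c1 and Tcirg1 were called, and the other forms were not.

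Among the membrane proteins, Cd63 and Laptm5 rose furthest. Cd63, a tetraspanin of late endosomes and lysosomes, had a lowest, median and highest level of 159, 176 and 188 CPM in air and 228, 242 and 259 CPM in CNC. With no overlap, Cd63 rose 1.39-fold (log2 fold change 0.48 ± 0.04 SE, adjusted p = 2.23e-06 by edgeR). Laptm5, a lysosomal membrane protein of blood-derived cells, had 244, 272 and 288 CPM in air and 331, 369 and 409 CPM in CNC, and rose 1.38-fold. The abundant lining glycoproteins Lamp1 and Lamp2 rose by less, 1.13- and 1.12-fold, each with all CNC rats above all air rats. Lamp1 ran from 714 to 758 CPM in air and from 804 to 855 CPM in CNC, and counts of Lamp2 per 100 of Lamp1 were 46.6 ± 1.46 in air and 46.2 ± 1.81 in CNC (SD, n = 6 per group).

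Npc1, the membrane transporter that passes cholesterol out of the lysosome, rose 1.19-fold, with 5 of 6 CNC rats above all air rats (118 to 140 CPM in air, 137 to 166 CPM in CNC). Its soluble partner Npc2, which binds the cholesterol first, rose 1.51-fold, the largest rise among the members after Atp6v0d2. Npc2 had a lowest, median and highest level of 513, 653 and 740 CPM in air and 866, 953 and 1067 CPM in CNC. Both partners rose, and counts of Npc2 per 100 counts of Npc1 went from a range of 404 to 559 in air to one of 575 to 644 in CNC. The calcium channel Mcoln1 did not pass (30.3 ± 1.3 CPM in air, 33.1 ± 2.03 CPM in CNC, SD, n = 6 per group, adjusted p = 0.0775 by edgeR), though 5 of 6 CNC rats lay above all air rats. Without CNC replicate 5, its lowest CNC rat, Mcoln1 passed (adjusted p = 0.04). Scarb2, the carrier of glucocerebrosidase to the lysosome, had a log2 fold change of 0.08 ± 0.05 SE and overlapping groups.

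The glycosidases, which strip sugars from proteins, lipids and glycogen, rose in 5 of 7 cases. Gaa, the acid glucosidase that degrades glycogen, had a lowest, median and highest level of 47.9, 58.6 and 60.6 CPM in air and 70.2, 78.8 and 87 CPM in CNC, and rose 1.37-fold. Hexa, the alpha chain of beta-hexosaminidase, had 117, 125 and 135 CPM in air and 147, 167 and 180 CPM in CNC, and rose 1.33-fold. Neither gene had overlapping groups. The glucuronidase Gusb (1.24-fold) and the beta-galactosidase Glb1 (1.21-fold) rose without overlap as well, and the alpha-mannosidase Man2b1 rose 1.09-fold with overlap. Man2b1 no longer passed when air replicates 4 and 5 (adjusted p = 0.0507) or CNC replicates 3 and 6 (adjusted p = 0.0562) were both removed, and with library size alone (adjusted p = 0.0625). With the clock covariate the log2 fold change of Man2b1 went from 0.13 to 0.04 (adjusted p = 0.776).

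The sialidase Neu1 lay at the threshold (log2 fold change 0.16 ± 0.06 SE, adjusted p = 0.0508 by edgeR). It passed without air replicate 1, its highest air rat (adjusted p = 0.0434). It also passed without CNC replicate 3 (adjusted p = 0.0497) or CNC replicate 5 (adjusted p = 0.019), its lowest CNC rats. Robust edgeR (adjusted p = 0.0494) and a filter of 1 CPM in 6 rats (adjusted p = 0.0496) gave a call as well. The alpha-galactosidase Gla did not pass, at 28.8 ± 1.65 CPM in air against 29.3 ± 1.65 CPM in CNC (SD, n = 6 per group), with a log2 fold change of 0.03 ± 0.05 SE.

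Among the lipid and peptide hydrolases, Lipa stood out. It encodes lysosomal acid lipase, which frees cholesterol and fatty acids from engulfed esters. Lipa had a lowest, median and highest level of 162, 167 and 185 CPM in air and 225, 237 and 284 CPM in CNC, with the groups apart. It rose 1.42-fold (log2 fold change 0.51 ± 0.05 SE, adjusted p = 7.7e-06 by edgeR). The peptidase Tpp1 rose 1.1-fold, from 160 to 176 CPM in air to 181 to 190 CPM in CNC. Asah1, Smpd1 and Ppt1 did not pass. Asah1, acid ceramidase, had a log2 fold change of 0.07 ± 0.04 SE, and Smpd1, acid sphingomyelinase, had -0.08 ± 0.04 SE, with 141 to 162 CPM in air and 136 to 149 CPM in CNC. Without air replicates 4 and 5, its lowest air rats, or with library size alone, Smpd1 passed as lower (log2 fold change -0.12 and -0.10, adjusted p = 0.0347 and 0.0497). Ppt1, which removes palmitate from proteins, had a coefficient of variation of 13.3% in CNC and a log2 fold change of 0.10 ± 0.07 SE. Without CNC replicates 3 and 6, Ppt1 (adjusted p = 0.00834) and Asah1 (adjusted p = 0.0311) passed as higher. For both genes the rats removed were the lowest CNC rats.

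The soluble proteins that are not enzymes rose without overlap. Beside Npc2, these were Psap, the precursor of the saposins that help sphingolipid hydrolases, and Grn, which encodes progranulin. Psap had a lowest, median and highest level of 1059, 1151 and 1218 CPM in air and 1297, 1474 and 1623 CPM in CNC, and rose 1.28-fold. Grn had 249, 268 and 282 CPM in air and 318, 361 and 381 CPM in CNC, and rose 1.34-fold. Tfeb, the transcription factor that drives many lysosomal genes and is controlled largely by its place in the cell, was at 33.9 ± 2.32 CPM in air against 36.7 ± 2.76 CPM in CNC (SD, n = 6 per group, adjusted p = 0.188 by edgeR).

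**Figure D4:**
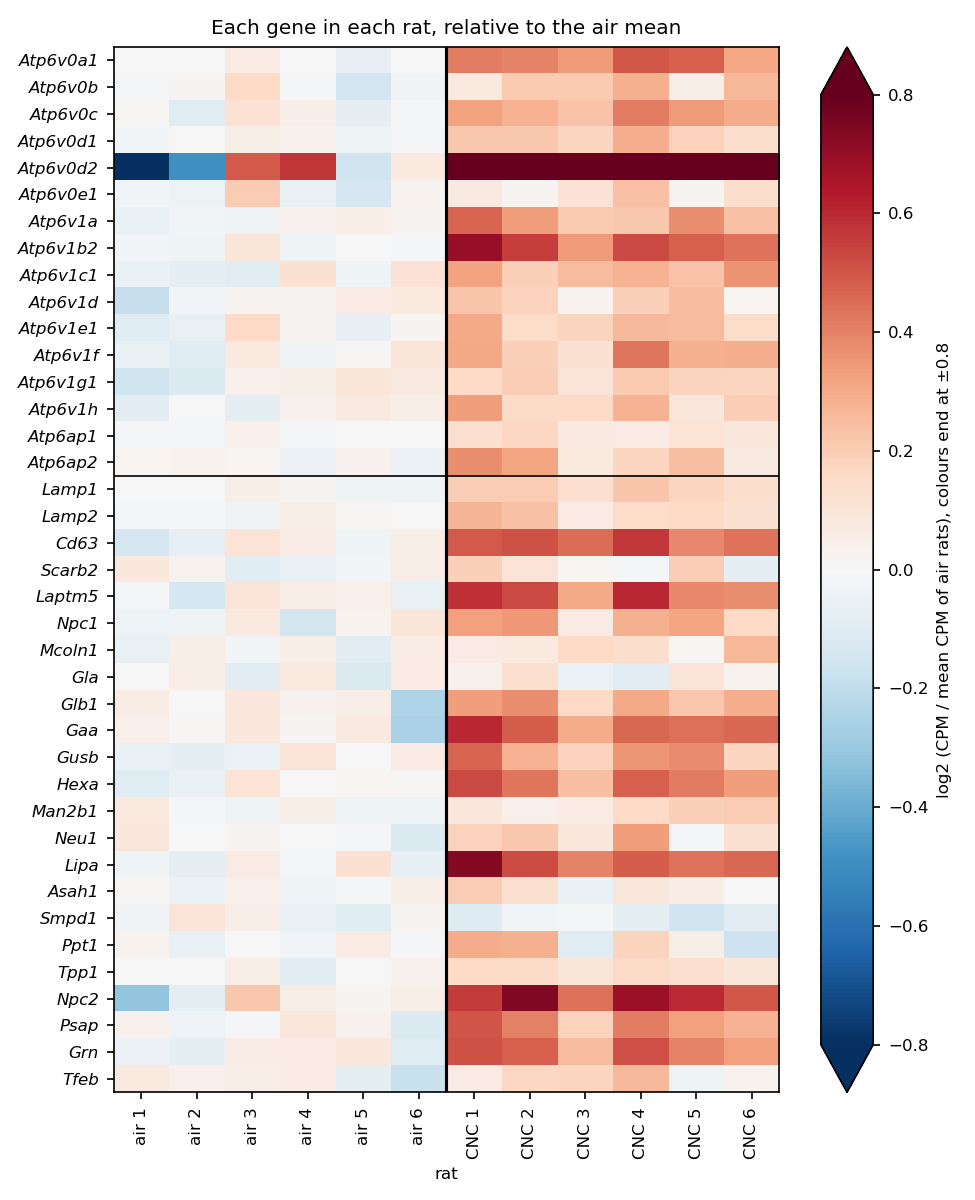
Each member (rows) in each rat (columns, air left and CNC right of the line) as log2 of its CPM over the mean of the air rats; colours end at ±0.8, pump genes lie above the horizontal line. CNC replicate 1 was the highest CNC rat for 15 members and CNC replicate 3 the lowest for 18.

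Members varied little between rats of a group. The coefficient of variation had a median of 5.18% in air and 6.6% in CNC, and Atp6v0d2 was highest in both groups (40.1 and 14.3%). In CNC, replicate 1 was highest for 15 and replicate 4 for 13 of the 39 members, and replicate 3 was lowest for 18. In air, replicate 3 was highest for 16 members, 8 of them pump genes.

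Further lysosomal genes outside the member list also rose, with exceptions. Of 34 other hydrolases and cofactors tested 19 rose (55.9%) and 2 fell, where 13.2% of all genes tested rose and 11.4% fell. Pld3, a lysosomal nuclease, rose 1.56-fold, Lgmn, the asparagine-specific protease legumain, 1.45-fold, Naglu, a heparan sulfate hydrolase, 1.27-fold and Ctsa, a protective carboxypeptidase, 1.26-fold. Of these 4, Naglu lost its call with the clock covariate (adjusted p = 0.0799). Over the whole list of hydrolases and cofactors, the genes called higher went from 19 to 4 with that covariate. The hyaluronidase Hyal1 fell 1.26-fold and the sulfatase Arsa 1.08-fold. Arsa no longer passed without air replicate 1, 2 or 3 or without CNC replicate 1, 2 or 3 (adjusted p from 0.065 to 0.0866). With the clock covariate neither passed (adjusted p = 0.267 for Hyal1 and 0.286 for Arsa). Their log2 fold changes went from -0.33 to -0.32 for Hyal1 and from -0.11 to -0.14 for Arsa. Of 30 other membrane proteins and transporters 13 rose (43.3%) and 1, the ion channel Tpcn1, fell. With the clock covariate Tpcn1 no longer passed (adjusted p = 0.105), at a log2 fold change of -0.22 against -0.17 without it. Mcoln2, a relative of Mcoln1 found in immune cells, rose 2.24-fold, from 13.9 ± 2.26 to 30.9 ± 5.07 CPM (SD, n = 6 per group). The macrophage sialomucin Cd68 rose 2.03-fold, the phagosomal metal transporter Slc11a1 1.7-fold and the endosomal membrane protein Litaf 1.36-fold. With the clock covariate the membrane proteins and transporters called higher went from 13 to 7, with Mcoln2, Cd68, Slc11a1 and Litaf among them.

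Markers of several cell types moved with the groups. Among 9 tested alveolar macrophage markers 5 rose and 2, Fabp4 and Car4, fell, with Marco listed at 0 in all rats. Their sum was 707 to 807 CPM in air and 1007 to 1294 CPM in CNC. Much of that difference lay in Plet1 (180 ± 24 to 350 ± 44.2 CPM) and Fabp5 (119 ± 18.8 to 257 ± 9.13 CPM, SD, n = 6 per group). Mrc1 and Siglec1 were not called. For monocyte and interstitial macrophage markers 6 of 9 rose and 1, Csf1r, fell. Their sum was 13879 to 18651 CPM in air and 22901 to 28493 CPM in CNC, most of it Lyz2. Lyz2 alone was 13371 to 18213 CPM in air and 22449 to 27978 CPM in CNC, so the sum describes Lyz2 rather than the list. Csf1r went from 299 ± 14.1 to 264 ± 25.1 CPM (SD, n = 6 per group). Neutrophil markers had 5 of 8 tested higher and 1, Ngp, lower, with sums of 146 to 250 CPM in air and 408 to 670 CPM in CNC. Much of that difference lay in S100a9 (73.2 ± 12.9 to 275 ± 68.8 CPM) and Cd177 (17 ± 7.86 to 119 ± 23.5 CPM, SD, n = 6 per group). Csf3r and Mmp8 were not called, and the granule genes Mpo and Elane averaged below 0.12 CPM in both groups. Alveolar type 2 markers had 8 of 10 higher and none lower by edgeR, by DESeq2, by limma-voom or at an unadjusted p below 0.05, with sums of 23526 to 30698 CPM and 31206 to 38254 CPM. Type 1 and endothelial markers went the other way, with 5 of 7 and 7 of 7 lower. With the clock covariate the 5 type 1 calls were lost (adjusted p from 0.157 to 0.926 by edgeR). Of the endothelial markers Cdh5 and Emcn still passed as lower (adjusted p = 0.0386 and 0.00563). Markers called higher with the covariate numbered 4 for alveolar macrophages, 2 for monocytes and interstitial macrophages, 3 for neutrophils and 6 for type 2 cells. The part of these cell types in the members' rises was not tested.

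Beside Atp6v0d2, markers of the other cells that use it were read. Of the osteoclast and multinucleated macrophage list Acp5 (49.3 ± 5.36 to 68 ± 9.55 CPM) and Ctsk (21 ± 7.64 to 55.4 ± 9.5 CPM, SD, n = 6 per group) rose, Mmp9 and Oscar were not called, and Dcstamp was listed at 0 in all rats. Calcr had 1 count over the air libraries and 0 over the CNC libraries. The 6 genes of this list found in the count table summed to 65.6 to 96.9 CPM in air and 111 to 161 CPM in CNC. Much of that difference lay in Ctsk and Acp5, so the sum describes these genes rather than the list. With the clock covariate Acp5 (adjusted p = 0.182 by edgeR) and Ctsk (adjusted p = 0.149) lost their calls. Of the 8 ionocyte and intercalated cell genes Slc26a4, the anion exchanger pendrin, and Cftr rose, and the sum over the list was 130 to 162 CPM in air and 188 to 235 CPM in CNC. Slc26a4 went from 6.97 ± 3.85 to 66.5 ± 10.9 CPM and Cftr from 16.6 ± 1.68 to 26.5 ± 4.8 CPM (SD, n = 6 per group), while Atp6v1c2, at 121 and 115 CPM, was not called. The defining factors of those cells were near 0, with 0 counts of Foxi1 in air and 2 in CNC, and 19 and 15 counts of Ascl3.

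Circadian clock genes differed between the groups as well, with 7 of 14 higher and 5 lower in CNC. Their first principal component, which held 78.9% of their variance, ran from -1.24 to 5.14 in air and from -4.38 to -1.2 in CNC. With that component as a covariate 12 of the 39 members were called higher and none lower. These were Atp6v0a1, Atp6v0d2, Atp6v1a, Atp6v1b2 and Atp6ap2 of the pump, and Cd63, Npc1, Gaa, Hexa, Lipa, Tpp1 and Npc2. The fitted change of all 30 called members stayed positive, and the standard error grew by a median factor of 1.96. The median over the 39 was 0.22, and over all genes tested it was -0.00025. The share of all genes tested that passed with the covariate is not given here, and the 13.2% higher belongs to the fit without it. Atp6v0d2 had 1.66 ± 0.37 SE (adjusted p = 0.0198), Atp6v1b2 0.58 ± 0.10 SE (adjusted p = 0.00563) and Laptm5, which lost its call, 0.37 ± 0.11 SE (adjusted p = 0.0584). Air replicate 4, at -1.24, was the only air rat within the CNC range. The part of the clock in the rises was not tested beyond this fit.

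**Figure D5:**
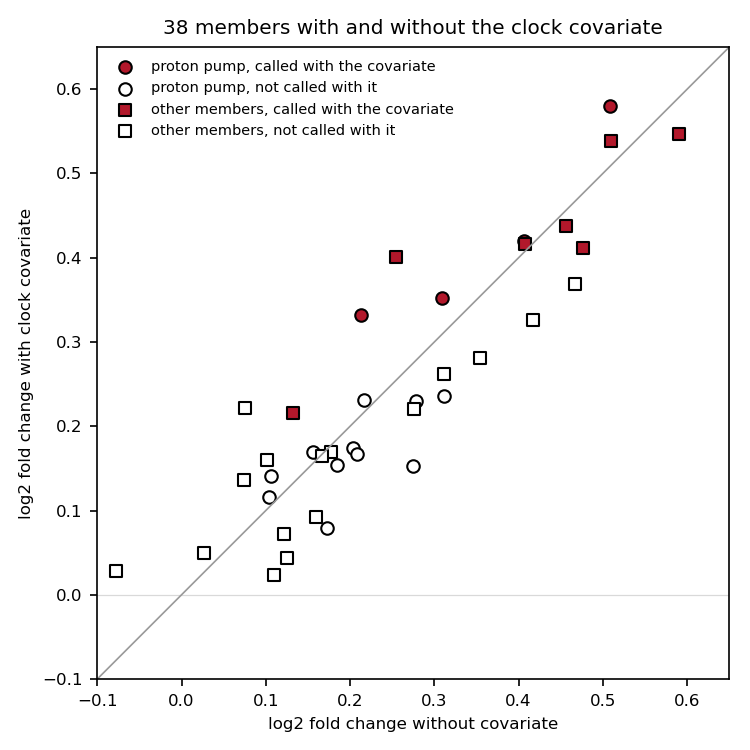
Log2 fold change, CNC minus air, of the 38 members other than Atp6v0d2 without (horizontal axis) and with (vertical axis) the clock covariate; circles are pump genes, squares are the others, red marks an adjusted p below 0.05 with the covariate, and the line marks equal values. The points scatter on both sides of the line, and all 38 are above 0 on the vertical axis. Scarb2 (0.08 without, 0.22 with the covariate) and Npc1 (0.25 and 0.40) lie above the line, and Atp6v1c1 (0.27 and 0.15) lies below it.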

How the data were processed

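The authors deposited a table of raw counts per gene symbol for 12 libraries, whole numbers without normalization. Per the submitters' processing notes, the tools were HTSeq 0.11.2, SAMtools 1.8, HISAT2 2.1.0, Trimmomatic 0.35, bcl2fastq 2.19 and Cufflinks (roles not listed), and the name of the deposited table gives the build Rnor6. For the annotation and strand setting, nothing is given in the sources used here, so genes that overlap others or have near-identical copies are uncertain. Per the labels' protocols, polyadenylated RNA was made into stranded libraries with 12 PCR cycles, so counts are not independent molecules. Column names were matched to sample titles, and groups come from the labelled treatment. Replicate numbers only name a rat, and rats were housed 3 per cage, which was not modelled. No pair of libraries of a group looked repeated (chi-square per degree of freedom from 2.64 to 8.36).

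The count analysis used edgeR 4.0.16 under R 4.3.3, with filterByExpr (minimum count 10, minimum total 15), TMM, glmQLFit and glmQLFTest, Benjamini-Hochberg adjustment, threshold 0.05. The standard error is the log2 fold change divided by the root of F. The procedure was tested on simulated data. Alternatives were other scalings, filters and thresholds, DESeq2 1.42.0, limma-voom (limma 3.58.1), robust edgeR, a clock covariate and leaving out single rats or the pairs air 4 and 5 and CNC 3 and 6, which earlier work on these data had left out. All 39 members are named, with up to 4 called genes of smallest p from each other list and the alternative forms of pump subunits, whatever their result. The members, lists and settings were chosen with earlier results of these data known, and genes that fell in the other lists and single markers were picked after their values were seen. Promoter sequences are RefSeq's (GRCr8). Figures used Python 3.11.15 and matplotlib 3.10.9.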

Additional observations from a re-analysis of the deposited data

Results flagged for a closer look

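In 7 of 130 sets of 6 rats examined, 1 rat stood far from the others of its group by Dixon's criterion (its gap to the nearest rat, relative to the group's range), where chance flags about 1 in 20. Air replicate 3 was high for Atp6v1b2 (120 CPM, next rat 113 CPM) and for Atp6ap1 (195 CPM, next rat 189 CPM). Air replicate 6 was low for Gaa (47.9 CPM, next rat 57.6 CPM) and for Glb1 (44.4 CPM, next rat 52.6 CPM). CNC replicate 1 was high for Lipa (284 CPM, next rat 245 CPM). Outside the members, CNC replicate 3 was low for Vps41 (75.6 CPM, next rat 82.6 CPM) and CNC replicate 4 was high for Lamtor5 (43.1 CPM, next rat 38.6 CPM). The 5 members concerned kept their calls when the rat named was left out.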

How the results depend on the processing

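The number of members called higher was 30 and moved most with the clock covariate, to 12 (pump genes from 15 to 5, other members from 15 to 7, other lysosome genes from 49 to 17). Members called lower went from 0 to 1, Smpd1, with library size alone and without air replicates 4 and 5. Leaving out each rat in turn gave 29 to 31 members higher and 0 lower, 14 to 16 pump genes, 15 to 17 other members and 43 to 52 other lysosome genes, and medians of 0.21 to 0.24 for the pump and 0.17 to 0.20 for the others. With the clock covariate, uncalled genes changed sign: the log2 fold change of Smpd1 went to 0.0287, of Atp6v0a2 to 0.0499, of Atp6v0a4 to 0.0732 and of Atp6v1c2 to 0.0681. Leaving out each rat in turn, Atp6v0a4 ranged from -0.209 (without CNC replicate 3) to 0.0297 (without air replicate 2). In each case the cause was not tested. Of the 30 calls 12 held in all 24 settings and 15 were lost with the clock covariate alone. No paired analysis was possible because the labels give the groups no shared replicate numbers. The lowest member count, 40 in a library, limits the precision of Atp6v0d2 in air.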

Other observations

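Genes that carry proteins to the lysosome, sense its nutrients or feed it by autophagy rose in part. In the sorting, control and autophagy lists 35.7%, 33.3% and 25% rose, where 13.2% of all genes tested rose and 11.4% fell. The median log2 fold changes were 0.08, 0.14 and 0.0055, and 8 of the 16 autophagy genes were positive. Of 14 sorting receptors and adaptors 5 rose, all by less than 1.2-fold, and none fell by edgeR, by DESeq2, by limma-voom or at an unadjusted p below 0.05. They included the mannose 6-phosphate receptor Igf2r (1.16-fold), the adaptor subunit Ap1s1 (1.14-fold), the retromer subunit Vps26a (1.09-fold) and Vps41 (1.08-fold). The call of Vps41 was lost without air replicate 2, 4 or 6 or CNC replicate 1, 2, 5 or 6 (adjusted p from 0.0503 to 0.0717). Vps26a no longer passed when CNC replicates 3 and 6 were both removed (adjusted p = 0.0576). Igf2r no longer passed when air replicates 4 and 5 were both removed (adjusted p = 0.076). Of 18 genes of transcriptional and nutrient control 6 rose, and none fell by the same 4 counts. Tfec, a relative of Tfeb found in macrophages, rose 1.61-fold, from 4.6 ± 1.02 to 7.4 ± 1.15 CPM (SD, n = 6 per group), and the Rag GTPase Rragc 1.23-fold. The Ragulator subunits Lamtor5 and Lamtor3 rose 1.14- and 1.13-fold. Among 16 autophagy genes 4 rose, namely the receptor genes Optn (1.3-fold) and Sqstm1 (1.09-fold), Atg7 (1.22-fold) and Gabarap (1.18-fold), and Atg9a fell 1.09-fold. Atg9a no longer passed without air replicate 1, 2 or 3 or CNC replicate 1 or 5 (adjusted p from 0.0509 to 0.0711). Sqstm1 lost its call without air replicates 4 and 5 (adjusted p = 0.0516), without CNC replicates 3 and 6 (adjusted p = 0.108) and with library size alone (adjusted p = 0.0513). With the clock covariate the genes called higher went from 5 to 1 in the sorting list, from 6 to 3 in the control list and from 4 to 1 in the autophagy list. Of those named, Igf2r, Rragc and Optn passed. Ap1s1, Vps26a, Vps41, Tfec, Lamtor5, Lamtor3, Gabarap, Atg7 and Sqstm1 (adjusted p from 0.0913 to 0.563) and the lower call of Atg9a (adjusted p = 0.443) did not.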
